A study of Mus musculus with 20 samples.

Results

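The collagen genes of the skin were described across cell classes of growing mouse dorsal skin with and without Fgf5. Members are all genes in the deposited matrices whose symbol is Col, a number, a and a number, which 44 of 31055 features met. Kept were the 43 with at least 10 UMIs (unique molecular identifiers, each standing for 1 counted RNA molecule) over both matrices, and Col10a1, with 6 UMIs, was not kept. Of the 43, 26 reached a level of at least 20 CPM, UMIs scaled to a common class total, in a class of at least 200 cells in each library and are described with values.

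Collagens are secreted or membrane proteins of 3 intertwined alpha chains. Types I, III and V co-assemble into the fibrils that give the dermis its strength, and the FACIT collagens, such as types XII, XIV and XVI, attach to fibril surfaces. Type IV forms the sheet of basement membranes under the epidermis and around hair follicles and vessels. Type VII anchors that sheet to the dermis, and type XVII, a transmembrane protein, ties basal keratinocytes to it through hemidesmosomes.

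Cells came from anagen (growth phase) dorsal skin that the labels call epidermis, profiled with 10x Genomics 3' v3 libraries. Control mice carried Nfatc1-CreER, a tamoxifen-inducible recombinase under Nfatc1 control, with the R26R and mTmG reporters. Mutant mice carried the same transgenes and were labelled Fgf5-/-, homozygous for a mutant allele of Fgf5, a secreted factor that is known to bring anagen to its end. Tamoxifen was given for 3 days in both groups, from postnatal day 21 or 22 in control and from day 23 or 24 in mutant mice, so its start differs with genotype, and no age at harvest is given. The labels list 4 control and 16 mutant samples without saying which are separate animals. Each group was deposited as 1 matrix, so there are no replicates, nothing was tested, and every difference is one between these 2 libraries. Fgf5 itself was still counted in the mutant matrix, at 8.82 CPM (863 UMIs) beside 11.6 CPM in the control matrix (1631 UMIs). The labels do not describe the allele, so these counts of transcript ends do not check the genotype, and control and mutant below mean the libraries so labelled.

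After filtering there were 13790 control cells (median 5592 UMIs) and 11002 mutant cells (median 5985). The median mitochondrial share of a cell's UMIs was 3.21% and 4.92%, and 59 barcode sequences occurred in both matrices. Clusters were named from marker genes, and collagen genes took no part in clustering or naming. In what follows control values come first and mutant values second, ratios are log2 of mutant over control CPM, and ranges in brackets are 95% intervals that cover counting error only. "Rose" and "fell" are kept for genes past a size rule: a change of at least 2-fold whose nearer interval bound exceeds 1.5-fold, at a level of 100 CPM or more in 1 of the libraries. UMIs were counted near the 3' ends of transcripts, so levels are compared between libraries and classes and not between genes.

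Dermal cells were present in the tissue labelled epidermis. Fibroblast-like cells numbered 399 and 505, with summed CPM of the 8 fibroblast markers at 15198 and 15312 and no marker at 0. Dermal papilla-like cells, from the signalling cluster at the base of the follicle, numbered 519 and 332, with the 8 papilla markers at 12112 and 9228 CPM and none at 0.

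Fibroblast-like cells had the highest summed collagen level of the compared classes. All 43 genes together made up 3.71% of their UMIs in the control and 6.10% in the mutant library (37135 and 61031 CPM, log2 ratio 0.72, 0.70 to 0.73). Dermal papilla-like cells had 5886 and 7279 CPM (0.31, 0.28 to 0.33). Of the epithelial classes, outer root sheath-like cells, the outermost follicle layer, reached 1812 and 2256 CPM, and interfollicular basal keratinocyte-like cells, the dividing layer of the epidermis, 986 and 1757. Hair matrix-like cells, which form the hair shaft, summed to 97.6 and 76.8 CPM, and T or NK cell-like cells to 376 and 439 CPM.

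The genes divided by cell class. More than 50% of the control UMIs of 15 described genes lay in stromal classes, and of 9 in epithelial classes. In the mutant library these counts were 17 and 7. Col1a1, Col1a2 and Col3a1 ranged only from 1.31 to 17.8 CPM over the 9 compared classes outside the stroma. Epithelial UMIs predominated in both libraries for Col4a5, Col4a6, Col7a1, Col8a1, Col12a1, Col17a1 and Col18a1.

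**Figure D1:**
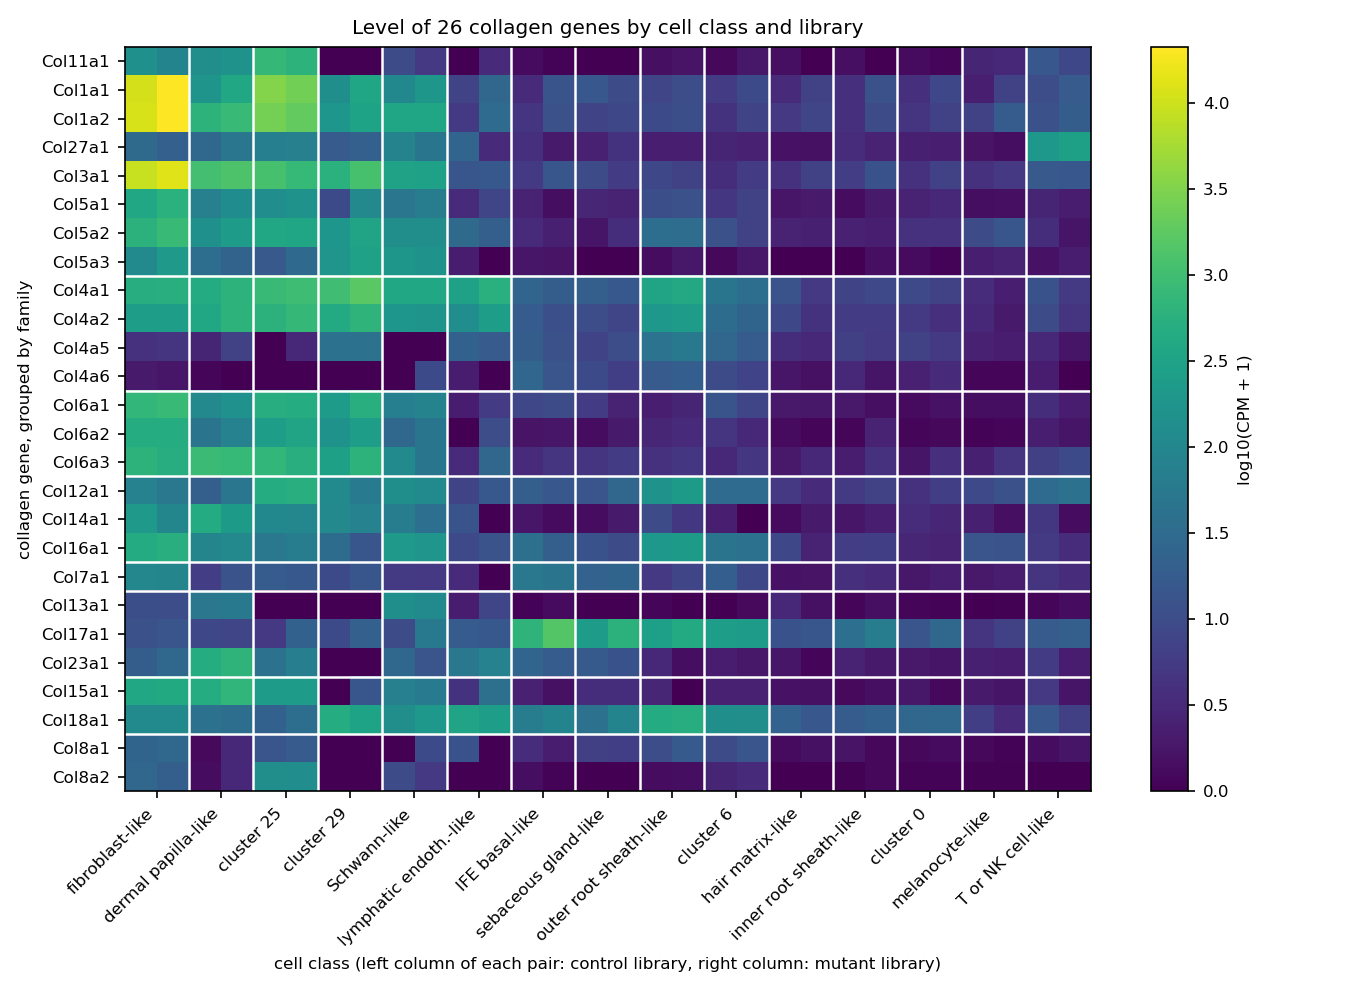
Colour shows log10(CPM + 1) of the 26 described collagen genes (rows, grouped by family and separated by white lines) in 15 cell classes or numbered clusters (columns), with the control library at the left and the mutant library at the right of each pair. Col1a1 reaches 11003 and 21062 CPM in fibroblast-like cells, Col17a1 is high in epithelial columns, and Col27a1 is highest in T or NK cell-like cells (203 and 282 CPM).

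The fibrillar collagens accounted for most of the fibroblast-like total, at 33114 and 57048 CPM (log2 ratio 0.78). Col1a1 (ENSMUSG00000001506, chromosome 11, 94936224 to 94953042, plus strand, GRCm38), the pro-alpha1 chain of type I collagen, had 11003 CPM in control and 21062 CPM in mutant fibroblast-like cells (0.94, 0.91 to 0.96). Col1a2, the pro-alpha2 chain, had 11764 and 21267 CPM (0.85, 0.83 to 0.88). Col3a1, the chain of type III collagen, had 9049 and 12947 CPM (0.52, 0.49 to 0.54). All 3 were higher in the mutant library but under the 2-fold limit. Their ratios were smaller in cells under 5000 UMIs (0.68, 0.61 and 0.22) than in deeper cells (0.98, 0.87 and 0.58).

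The type V chains, which help to set fibril diameter, ran the same way. Col5a1 had 388 and 590 CPM (0.60, 0.48 to 0.73) and Col5a2 602 and 865 CPM (0.52, 0.42 to 0.63). Col5a3 had 117 and 207 CPM (0.82, 0.59 to 1.05), and 25.8% and 42.4% of fibroblast-like cells held a Col5a3 UMI. Col11a1, a minor fibril chain, went the other way, with 146 and 88.1 CPM (-0.73, -0.99 to -0.47) and 33.1% and 20.8% of cells.

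Of the 16 collagen genes with at least 100 CPM in fibroblast-like cells, none rose and 1 fell, where 3.68% of all 1710 genes at that level rose and 3.51% fell. Ratios were above 0 for 12 of the 16, and their median was 0.17, beside -0.05 for all genes at that level. The gene that fell was Col14a1 (ENSMUSG00000022371, chromosome 15, 55307750 to 55520803, plus strand), the fibril-surface collagen of type XIV. It had 219 CPM in the control library (198 to 241, 420 UMIs) and 95.7 CPM in the mutant library (84.0 to 109, 240 UMIs), a log2 ratio of -1.19 (-1.43 to -0.96).

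Scaling mattered in this class. Factors by the trimmed mean of M values (TMM) raised every ratio of the class by 0.23, and median-ratio factors by 0.27. With either, 3 collagen genes (Col1a1, Col1a2 and Col5a3) rose and none fell, in place of none and 1. No share of all genes past the rule is given for these factors, so this count has no background beside it. Col14a1 then had -0.96 or -0.92, just short of the 2-fold limit. Markers of other cells also differed between the libraries in this class. The 6 melanocyte markers summed to 3441 and 1618 CPM, the 7 inner root sheath markers to 2119 and 294 CPM (1 of them at 0 in the mutant library) and the 5 red blood cell markers to 6477 and 4434 CPM, while median mitochondrial shares were 2.33% and 3.36%. Their part in the result was not tested.

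**Figure D2:**
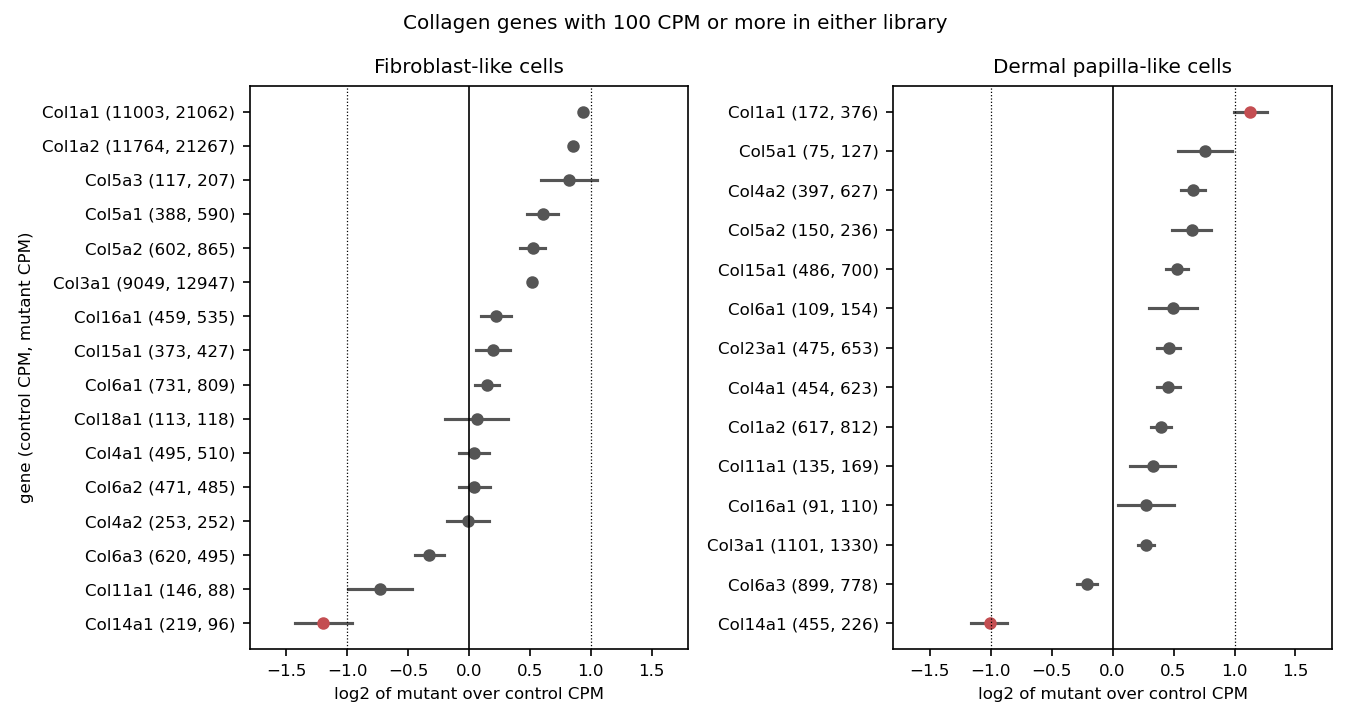
Points show log2 of mutant over control CPM and bars the 95% counting interval for every collagen gene with at least 100 CPM in either library, in fibroblast-like cells (left) and dermal papilla-like cells (right), with both CPM values in brackets beside the gene. Dotted lines mark 2-fold and red points passed the size rule: Col14a1 lies at -1.19 and -1.01, and Col1a1 at 1.13 in dermal papilla-like cells.

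The promoter of Col1a2 is shown because it has a matched window among the type I genes. RefSeq windows of 300 bases, from 250 before to 50 after an annotated start (GRCm38.p6), were found for 34 of the 43 genes, and Col1a1 and Col14a1 were not among them. The pentamer CCAAT, a motif known from type I collagen promoters, was searched on both strands as CCAAT or ATTGG. It occurred in 13 of 37 collagen windows and in 37.4% of all 32851 windows, The Col1a2 window, chr6:4505368-4505667 on the plus strand, holds 2 matches, in capitals.
Col1a2: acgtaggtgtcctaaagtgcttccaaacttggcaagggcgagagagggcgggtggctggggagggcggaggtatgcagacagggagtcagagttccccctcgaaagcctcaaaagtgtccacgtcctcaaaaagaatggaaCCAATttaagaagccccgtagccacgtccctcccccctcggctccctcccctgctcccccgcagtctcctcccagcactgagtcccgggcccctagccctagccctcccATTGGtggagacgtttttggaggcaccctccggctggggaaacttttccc
A match describes these letters and says nothing of binding.

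Within the fibroblast-like class the collagen genes were uneven. The share of a cell's UMIs from collagen genes had a median of 2.28% in control and 2.83% in mutant cells, but its 75th percentile was 3.88% and 8.60%. Cells with more than 5% collagen UMIs made up 17.5% of control and 35.4% of mutant fibroblast-like cells. At Leiden resolution 2 the class divided into 2 subclusters, again without use of collagen genes. One, with Coch, Fmod, Kera and Crabp1 among its leading genes, had 320 and 322 cells. The other, led by Lrrtm3, Mmp3 and Pcolce2, had 79 and 183 cells, 19.8% and 36.2% of the class.

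The Coch subcluster had nearly the same collagen total in both libraries. All collagen genes came to 20634 CPM in control and 20969 CPM in mutant cells (log2 ratio 0.02), Col1a1 to 5558 and 5814 CPM, and Col3a1 to 4255 and 3591 CPM (-0.24). The Mmp3 subcluster had 88217 and 112515 CPM (0.35, 0.33 to 0.37). There Col1a1 had 27860 and 40656 CPM (0.55, 0.52 to 0.57), Col1a2 30888 and 40786 CPM (0.40) and Col3a1 23890 and 24969 CPM (0.06). With the 2 subclusters weighted equally, the ratios were below the pooled ones: 0.29 for all collagen genes in place of 0.72, and 0.02 for Col3a1 in place of 0.52. This weighting was added after the data were seen.

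Col14a1 and Col5a3 differed in both subclusters. Col14a1 had 206 and 99.3 CPM in the Coch subcluster and 258 and 91.1 CPM in the Mmp3 subcluster (-1.50, -1.90 to -1.11). Col5a3 had 119 and 160 CPM in the former and 111 and 266 CPM in the latter (1.26, 0.83 to 1.72). Both genes thus kept their direction in each subcluster. Col11a1 was nearly all in the Coch subcluster, with 2 and 0 UMIs in the Mmp3 subcluster. The Coch subcluster held 80.2% of control and 63.8% of mutant fibroblast-like cells. The part of this mix in the Col11a1 ratio of the class was not tested. Over the alternative settings that ratio ran from -0.81 to -0.32.

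**Figure D3:**
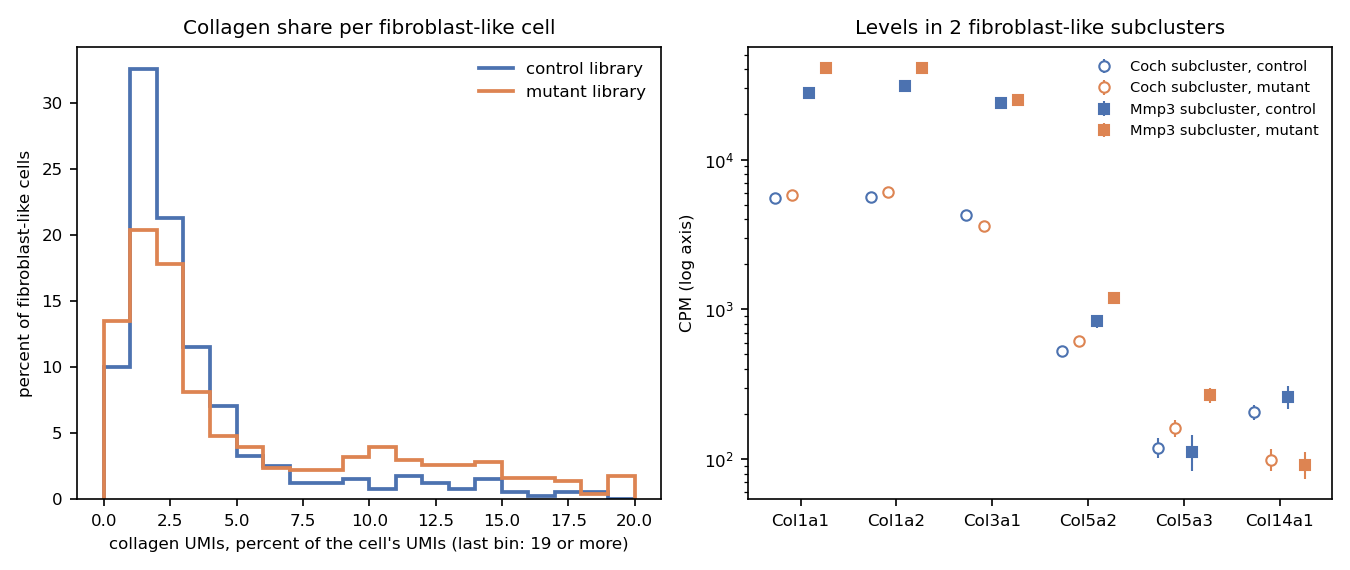
The left panel shows the percent of fibroblast-like cells (y) by collagen share of the cell's UMIs in percent (x, bins of 1%) for the control and mutant libraries. The right panel shows CPM on a log axis with 95% counting intervals of 6 collagen genes in the Coch subcluster (open circles) and the Mmp3 subcluster (squares): the mutant curve has more cells above 5% (35.4% against 17.5%), and Col14a1 is lower in the mutant library in both subclusters.

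Dermal papilla-like cells had 14 collagen genes with at least 100 CPM, of which 1 rose and 1 fell. In this class 9% of 2055 genes rose and 8.32% fell. Ratios were above 0 for 12 of the 14, with a median of 0.46, beside 0.0047 for all genes at that level. That majority was in the deeper cells: ratios were above 0 for 12 of the 14 in cells with 5000 or more UMIs (median 0.56) but for 8 in cells under 5000 UMIs (median 0.06). Median depth of the class was 7550 UMIs in control and 3055 in mutant cells. Cells with 5000 or more UMIs numbered 272 and 71, at medians of 26283.5 and 17269 UMIs, so their depths were not matched. At resolution 2 one subcluster had 342 and 290 cells (65.9% and 87.3%) and the other 177 and 42 (34.1% and 12.7%). Their median depths over both libraries were 2931 and 18972 UMIs, so depth and subcluster were not told apart. Col14a1 fell here too, from 455 CPM (440 to 471, 3433 UMIs) to 226 CPM (205 to 248, 427 UMIs), a log2 ratio of -1.01 (-1.16 to -0.86). After each cell was thinned to 1500 UMIs, 46.4% of 442 control cells (41.7 to 51.2) and 29.4% of 303 mutant cells (24.3 to 34.9) held a Col14a1 UMI, and unthinned shares were 75% and 50%. T or NK cell-like cells, a class in which the gene is not known to be active, had unthinned shares of 0.972% and 0.0770% at median depths of 2270 and 1944 UMIs.

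Col14a1 in this class lies at the edge of the rule. It came to -0.94 with thinned cells and -0.79 as a mean of per-cell CPM, and to -1.0, just under 2-fold, with each library clustered on its own or with the T or NK cell-like level subtracted. The direction was the same in cells under 5000 UMIs (447 and 255 CPM) and in deeper cells (456 and 209 CPM).

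Col1a1 rose in dermal papilla-like cells, from 172 CPM (163 to 182, 1297 UMIs) to 376 CPM (349 to 405, 711 UMIs), a log2 ratio of 1.13 (1.0 to 1.26). This rise also differed with cell depth, which was not told apart from subcluster. Cells under 5000 UMIs had 408 CPM in the control and 352 CPM in the mutant library (-0.21, -0.48 to 0.05), and cells with 5000 or more had 153 and 390 CPM (1.36, 1.2 to 1.51). As a mean of per-cell CPM the ratio was 0.32, and with cells thinned to 1500 UMIs it was 0.54, both under the rule. The 8 fibroblast markers, none at 0, summed to 458 and 695 CPM in this class and the red blood cell markers to 1774 and 4221 CPM, and their part in the result was not tested.

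**Figure D4:**
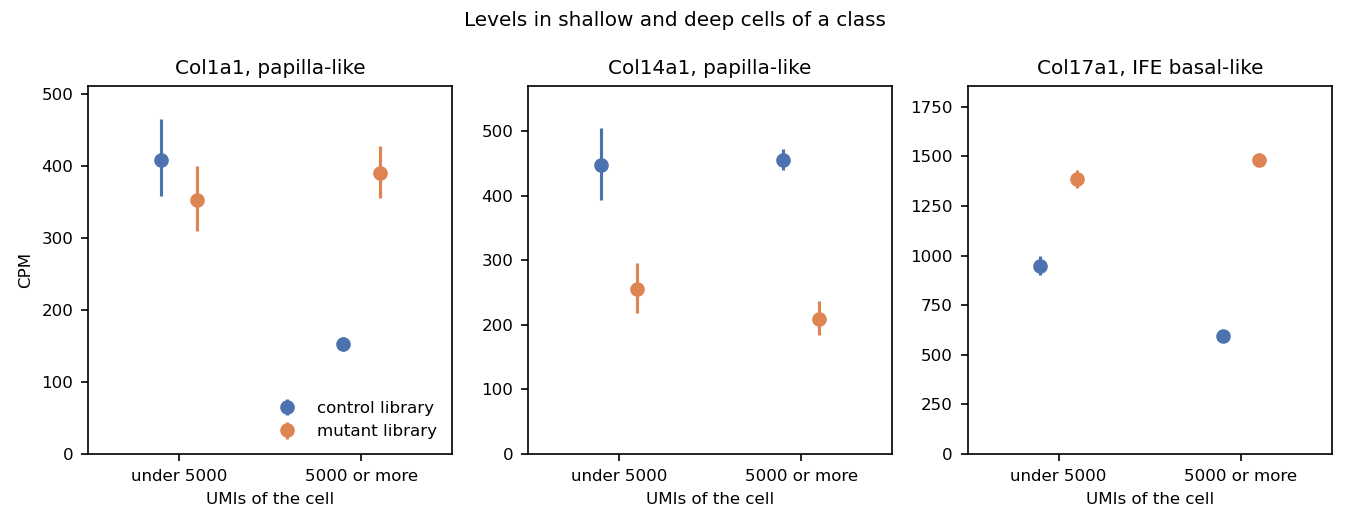
CPM with 95% counting intervals of Col1a1 and Col14a1 in dermal papilla-like cells and of Col17a1 in interfollicular basal keratinocyte-like (IFE basal-like) cells, each for cells with under 5000 UMIs and with 5000 or more, control and mutant library side by side. Col1a1 is higher in the mutant library in the deep cells (153 and 390 CPM) and not in the shallow ones (408 and 352 CPM). Col14a1 is lower in the mutant library at both depths. Col17a1 is higher at both, by less in shallow (948 and 1386 CPM) than in deep cells (596 and 1483 CPM). Deep papilla-like cells had median depths of 26283.5 and 17269 UMIs.

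The other fibrillar chains of dermal papilla-like cells stayed under the rule. Col1a2 had 617 and 812 CPM (0.39), Col3a1 1101 and 1330 CPM (0.27), Col5a1 74.6 and 127 CPM (0.76) and Col5a2 150 and 236 CPM (0.65). In cells under 5000 UMIs, however, Col1a2 had 724 and 568 CPM (-0.35, -0.55 to -0.15) and Col3a1 1260 and 1121 CPM (-0.17, -0.32 to -0.02), both in the other direction. For Col5a1 (0.32, -0.17 to 0.82) and Col5a2 (0.14, -0.24 to 0.52) the intervals in those cells held 0. Col11a1 had 135 and 169 CPM (0.33) over all cells, but 178 and 143 CPM (-0.31, -0.73 to 0.10) under 5000 UMIs, and thinned shares of cells were 18.3% and 17.5%. Col5a3, at 35.0 and 23.3 CPM (-0.59), had the opposite sign to fibroblast-like cells.

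Type IV collagen, the basement membrane network, was shared between stroma and epithelium. Col4a1 (chromosome 8, 11198423 to 11312826, minus strand) and Col4a2 (chromosome 8, 11312805 to 11449287, plus strand) encode chains that assemble together and are transcribed away from a common start region. Dermal papilla-like cells had 454 and 623 CPM of Col4a1 (0.46, 0.36 to 0.55) and 397 and 627 CPM of Col4a2 (0.66, 0.56 to 0.76). Under 5000 UMIs these ratios were 0.21 (-0.01 to 0.43) and 0.50 (0.27 to 0.73). Outer root sheath-like cells had 334 and 411 CPM of Col4a1 (0.30, 0.22 to 0.37) and 201 and 249 CPM of Col4a2 (0.31, 0.21 to 0.41). In fibroblast-like cells neither differed beyond counting error: Col4a1 had 495 and 510 CPM (0.04, -0.08 to 0.17) and Col4a2 253 and 252 CPM (-0.01, -0.18 to 0.17).

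The shared start region is shown because both genes had ratios of the same size in outer root sheath-like and fibroblast-like cells and of the same sign in dermal papilla-like cells. Their RefSeq windows (GRCm38.p6), chr8:11312777-11313076 on the minus strand for Col4a1 and chr8:11312555-11312854 on the plus strand for Col4a2, overlap by 78 bases, and the annotated starts lie 21 bases apart. Capitals mark CCAAT or ATTGG, 1 in each window.
Col4a1: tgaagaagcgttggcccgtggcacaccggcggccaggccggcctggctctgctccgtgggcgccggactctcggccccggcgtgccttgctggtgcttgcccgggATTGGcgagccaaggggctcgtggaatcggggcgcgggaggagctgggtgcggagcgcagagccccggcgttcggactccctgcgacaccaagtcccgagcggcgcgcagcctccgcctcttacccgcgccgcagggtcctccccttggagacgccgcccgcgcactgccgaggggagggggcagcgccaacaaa
Col4a2: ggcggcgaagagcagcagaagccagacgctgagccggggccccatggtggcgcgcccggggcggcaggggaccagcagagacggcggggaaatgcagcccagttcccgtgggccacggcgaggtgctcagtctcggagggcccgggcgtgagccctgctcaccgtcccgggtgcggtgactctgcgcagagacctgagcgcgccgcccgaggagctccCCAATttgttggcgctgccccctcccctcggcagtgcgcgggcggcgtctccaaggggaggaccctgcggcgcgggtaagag
Col4a5 and Col4a6, chains of another type IV network, are likewise neighbours, on chromosome X. Col4a5 had 43.3 and 54.9 CPM in outer root sheath-like cells (0.34), and Col4a6 had 25.7 and 12.8 CPM in interfollicular basal keratinocyte-like cells (-1.0, -1.35 to -0.67), below the 100 CPM minimum.

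Type VI collagen forms beaded filaments near basement membranes and cells. Its 3 main chains were mainly stromal, and none passed the size rule in a compared class. In fibroblast-like cells Col6a1 had 731 and 809 CPM (0.15), Col6a2 471 and 485 CPM (0.04) and Col6a3 620 and 495 CPM (-0.32, -0.44 to -0.21). In dermal papilla-like cells Col6a1 had 109 and 154 CPM (0.50), Col6a2 45.5 and 81.0 CPM (0.83) and Col6a3 899 and 778 CPM (-0.21). The lower Col6a3 level of papilla-like cells was seen in cells with 5000 or more UMIs (902 and 723 CPM) and not under 5000 UMIs (853 and 872 CPM, 0.03, -0.14 to 0.21). Under 5000 UMIs Col6a1 was at 0.34 (-0.14 to 0.83).

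Dermal papilla-like cells also carried 2 transmembrane collagens and a multiplexin. Col23a1, the transmembrane type XXIII chain, had 475 and 653 CPM (0.46, 0.36 to 0.55), against 17.7 and 27.1 CPM in fibroblast-like cells. Col13a1, the transmembrane type XIII chain, had 50.4 and 55.6 CPM (0.14). Col15a1, a proteoglycan-like collagen of basement membrane zones, had 486 and 700 CPM there (0.53, 0.43 to 0.62) and 373 and 427 CPM in fibroblast-like cells (0.20). In papilla-like cells under 5000 UMIs Col15a1 had 621 and 657 CPM (0.08, -0.12 to 0.28). Fibroblast-like cells under 5000 UMIs had 451 and 494 CPM of it (0.13, -0.07 to 0.33). None of the 3 passed the size rule.

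The remaining fibril-associated collagens were divided between compartments. Col16a1 had 459 and 535 CPM in fibroblast-like cells (0.22), 90.6 and 110 CPM in dermal papilla-like cells (0.27, but -0.36 in cells under 5000 UMIs) and 200 and 231 CPM in outer root sheath-like cells (0.21). Its fibroblast-like ratio was -0.03 (-0.22 to 0.16) in cells under 5000 UMIs and 0.42 (0.26 to 0.59) in deeper ones. Col12a1, of type XII, had 164 and 224 CPM in outer root sheath-like cells (0.44, 0.34 to 0.55) and 80.8 and 52.6 CPM in fibroblast-like cells (-0.62, -0.96 to -0.27). The fibroblast-like ratio of Col12a1 was -0.46 (-0.95 to 0.03) under 5000 UMIs and -0.69 (-1.19 to -0.20) in deeper cells. In dermal papilla-like cells it had 19.4 and 48.2 CPM (1.32), but a mean of per-cell CPM gave -0.23, cells under 5000 UMIs had 55.9 and 27.2 CPM (-1.04), and T or NK cell-like cells held 31.3 and 41.9 CPM. The network-forming Col8a1 had 24.0 and 28.3 CPM and Col8a2 25.5 and 19.1 CPM in fibroblast-like cells.

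Col17a1 (ENSMUSG00000025064, chromosome 19, 47646344 to 47692094, minus strand), the hemidesmosomal collagen of type XVII, was the 1 collagen past the size rule in epithelial classes. It rose in interfollicular basal keratinocyte-like cells, from 659 CPM (642 to 676, 5761 UMIs) to 1454 CPM (1429 to 1480, 12465 UMIs), a log2 ratio of 1.14 (1.10 to 1.19). It was the 1 collagen gene at 100 CPM in that class, where 9.12% of 1601 genes rose and 9.74% fell. It also rose in sebaceous gland-like cells, the lipid-producing cells of the follicle, from 247 CPM (229 to 267) to 609 CPM (574 to 646), a log2 ratio of 1.30 (1.16 to 1.44), again as the 1 collagen at that level. There 4.88% of 1578 genes rose and 9.82% fell.

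Other keratinocytes differed less in Col17a1. Outer root sheath-like cells had 273 and 447 CPM (0.71, 0.63 to 0.79), and in this class 0 of 6 collagen genes at 100 CPM passed the rule, beside 1.2% of 1498 genes that rose and 1% that fell. Cluster 6, with Pthlh, Krt6a and Sox9 among its leading genes and upper follicle and companion layer markers tied, had 253 and 237 CPM (-0.09), and 0 of its 2 collagens passed, beside 1.8% and 2.06% of 1504 genes. Thinned to 1500 UMIs, 68.7% of control and 85.0% of mutant interfollicular basal keratinocyte-like cells held a Col17a1 UMI (94.9% and 97.6% unthinned), 31.5% and 51.5% of sebaceous gland-like cells (66.4% and 79.6%), and 2.32% and 2.56% of T or NK cell-like cells.

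The 2 libraries filled the interfollicular basal class from different clusters. Control cells lay mostly in cluster 10 (963 and 65 cells), and mutant cells in cluster 3 (23 and 1235 cells), which was led by Tslp, Epgn and Ccl20. Within resolution 2 subclusters of the class, Col17a1 had 734 and 1405 CPM in one of 22 and 961 cells (0.94, 0.63 to 1.26), 844 and 1041 CPM in one of 609 and 48 cells (0.30), and 592 and 645 CPM in one of 319 and 15 cells (0.12). Weighting the subclusters equally gave 0.51, thinned cells 0.85 and a mean of per-cell CPM 0.79, all under the rule. Resolution 0.5, where 54 mutant cells kept the name, gave 0.27. There a cluster of 237 control and 1516 mutant cells, led by Tslp, Epgn and Ccl20, stayed unnamed. Its interfollicular basal (2.89) and upper follicle (2.70) marker scores tied, so the name of most mutant cells depended on the clustering. In the main clustering, cluster 3 scored 3.23 and 1.94 for these markers. Cells under 5000 UMIs had 948 and 1386 CPM of Col17a1 (0.55, 0.46 to 0.64), under the 2-fold limit. Deeper cells, at medians of 8160 and 6770.5 UMIs, had 596 and 1483 CPM (1.32, 1.26 to 1.37). Krt14 had 10769 and 14104 CPM and Krt5 5753 and 4161 CPM in the class, and median mitochondrial shares were 2.59% and 4.94%.

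Cells of another lineage carried Col17a1 as well. Langerhans, macrophage or dendritic-like cells, 61 and 76 in number and so given as levels only, had 328 and 1004 CPM. They also held 6623 and 6641 CPM of Krt14, a basal keratinocyte keratin, and the part of keratinocyte RNA in the Col17a1 value was not tested. T or NK cell-like cells had 16.3 and 19.3 CPM of Col17a1 and 240 and 212 CPM of Krt14.

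**Figure D5:**
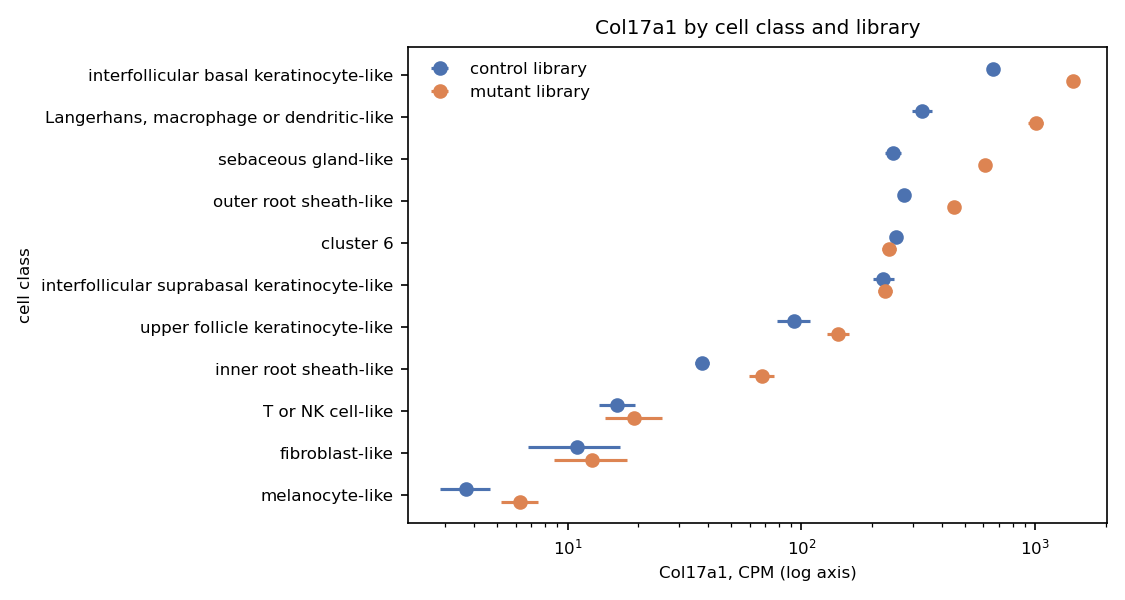
Col17a1 CPM (x, log axis) with 95% counting intervals in 11 cell classes or clusters (y), control and mutant library. The mutant library is higher in interfollicular basal (659 and 1454 CPM) and sebaceous gland-like cells (247 and 609 CPM) and near the control in cluster 6 (253 and 237 CPM), and the level is under 20 CPM in T or NK, fibroblast and melanocyte-like cells.

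The start region of Col17a1 is shown because this gene rose in 2 keratinocyte classes. The window is chr19:47691993-47692292 on the minus strand of GRCm38.p6, from RefSeq, with its 1 match to ATTGG in capitals.
Col17a1: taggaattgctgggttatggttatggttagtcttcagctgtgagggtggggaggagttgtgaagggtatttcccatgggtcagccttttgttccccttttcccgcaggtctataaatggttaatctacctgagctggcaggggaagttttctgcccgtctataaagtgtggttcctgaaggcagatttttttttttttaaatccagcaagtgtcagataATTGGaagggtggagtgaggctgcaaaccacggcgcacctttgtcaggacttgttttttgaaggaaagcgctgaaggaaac
Col7a1, the anchoring fibril collagen made by keratinocytes and fibroblasts, did not follow Col17a1. It had 53.4 and 46.0 CPM in interfollicular basal keratinocyte-like cells (-0.22, -0.41 to -0.02), 22.1 and 24.2 CPM in sebaceous gland-like cells (0.13) and 99.5 and 91.3 CPM in fibroblast-like cells (-0.12, -0.41 to 0.16). Interfollicular basal cells under 5000 UMIs had 89.8 and 48.6 CPM of Col7a1 (-0.89, -1.25 to -0.53), and deeper ones 45.5 and 44.9 CPM (-0.02).

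Col18a1, a basement membrane collagen known as the source of endostatin, was highest in outer root sheath-like cells among the compared classes. It had 464 and 505 CPM in outer root sheath-like cells (0.12, 0.05 to 0.19), where 88.9% and 85.9% of cells held a UMI. Interfollicular basal keratinocyte-like cells had 66.1 and 88.6 CPM (0.42), sebaceous gland-like cells 42.4 and 87.2 CPM (1.04, 0.68 to 1.40) and fibroblast-like cells 113 and 118 CPM (0.06). The interfollicular ratio was -0.01 (-0.39 to 0.37) in cells under 5000 UMIs and 0.58 (0.40 to 0.75) in deeper ones. The sebaceous value was 2-fold but under 100 CPM.

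Col27a1, a fibrillar collagen known from cartilage, was highest in T or NK cell-like cells among the compared classes. They had 203 CPM (193 to 213) and 282 CPM (262 to 303), a log2 ratio of 0.47 (0.35 to 0.60), and 67.4% and 72.7% of all Col27a1 UMIs were in immune classes. Thinned to 1500 UMIs, 21.5% of 2591 control and 30.8% of 1016 mutant cells held one (29.9% and 34.3% unthinned), against 0.153% and 0.133% of outer root sheath-like cells. The libraries filled this class from different clusters: cluster 2 held 1381 and 49 cells, cluster 9 1011 and 27, and cluster 8 36 and 1029. Cluster 2 had 314 and 321 CPM (0.03), cluster 8 469 and 343 CPM (-0.45), cluster 9 165 and 329 CPM (0.99) and cluster 14, with Il17a and Icos among its leading genes, 7.30 and 6.29 CPM. The ratio of the class was 0.18 with clusters of resolution 2 weighted equally and 0.20 under the stricter cell filter. The 1 collagen at 100 CPM in this class did not pass the rule, beside 5.16% of 1687 genes that rose and 6.46% that fell. In fibroblast-like cells Col27a1 had 30.7 and 19.9 CPM, and in dermal papilla-like cells 26.7 and 49.2 CPM.

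Genes that make, process and bind collagen were taken from 5 lists. Their fibroblast-like values pool the Coch and Mmp3 subclusters, and the latter held 19.8% of control and 36.2% of mutant cells. Adamts2 and Pcolce2 were among the leading genes of the Mmp3 subcluster. Apart from Mmp3, no list values within these subclusters are given here, and the part of their mix was not tested. Of the 19 folding and modification genes, 9 had 100 CPM in fibroblast-like cells and none passed the rule, with a median log2 ratio of 0.37 beside -0.05 for all genes at that level. Serpinh1, the collagen chaperone HSP47, had 1334 and 1662 CPM there (0.32), and Ppib, a prolyl isomerase, 843 and 676 CPM (-0.32). None of 7 passed in dermal papilla-like cells, with Ppib at 1114 and 709 CPM (-0.65) and Serpinh1 at 777 and 738 CPM (-0.07). Of the 13 processing and crosslinking genes, 7 were at that level in fibroblast-like cells and none passed (median 0.58). The 2 highest were Adamts2, the procollagen N-proteinase, at 546 and 1012 CPM (0.89, 0.79 to 0.99), and Pcolce, an enhancer of C-propeptide removal, at 618 and 444 CPM (-0.48). Pcolce was the 1 at that level in dermal papilla-like cells, at 730 and 450 CPM (-0.70).

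In fibroblast-like cells 2 of 7 breakdown and uptake genes at 100 CPM rose and none fell (median of the 7, 0.47), beside 3.68% of all 1710 genes that rose. Mmp3, the matrix protease stromelysin-1, rose from 42.2 to 320 CPM (2.92, 2.59 to 3.27), and in the Coch and Mmp3 subclusters it had 6.89 and 33.3 CPM and 152 and 689 CPM. Timp3, a matrix-bound protease inhibitor, rose from 412 to 830 CPM (1.01, 0.89 to 1.13), and its 3' end matches an annotated transcript of Syn3, so its counts are uncertain. In dermal papilla-like cells none of 6 passed, with Timp2 at 243 and 298 CPM (0.29) and Timp3 at 156 and 249 CPM (0.68).

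Of the 9 collagen receptor genes, 3 were at 100 CPM in fibroblast-like cells and 1 rose: Cd44, a hyaluronan receptor that also binds collagen, from 77.6 to 241 CPM (1.63, 1.37 to 1.90). It rose in dermal papilla-like cells too, as 1 of 4 beside 9% of 2055 genes, from 43.4 to 105 CPM (1.28, 1.02 to 1.54). In interfollicular basal keratinocyte-like cells, where 9.12% of 1601 genes rose, all 3 at that level did: Itga2, the alpha2 integrin chain, from 37.4 to 152 CPM (2.03), its partner Itgb1 from 180 to 412 CPM (1.19) and Cd44 from 232 to 924 CPM (2.0). The libraries filled that class from different clusters (cluster 10, 963 and 65 cells, and cluster 3, 23 and 1235 cells). No receptor values within these clusters are given here. In sebaceous gland-like cells, where 4.88% of 1578 genes rose, 2 of 2 receptor genes at 100 CPM rose. Itgb1 went from 114 to 242 CPM (1.08) and Cd44 from 158 to 448 CPM (1.5). Timp3, the 1 breakdown and uptake gene at that level there, rose from 163 to 468 CPM (1.52). None of the 12 fibril-associated proteoglycan and glycoprotein genes at 100 CPM passed in fibroblast-like cells (median 0.06). The 2 highest, Sparc, a collagen-binding protein, and Dcn, the proteoglycan decorin, had 13443 and 14300 CPM (0.09) and 10630 and 11183 CPM (0.07). Dcn, like Lum and Dpt of the same list, was also among the markers that named the fibroblast-like class. Neither of the 2 at that level in dermal papilla-like cells passed, with Sparc at 1971 and 1632 CPM and Bgn, the proteoglycan biglycan, at 539 and 536 CPM. In hair matrix-like cells, where 1.34% of 1345 genes rose, Dcn, the 1 gene of that list at 100 CPM, rose from 60.6 to 181 CPM (1.58, 1.41 to 1.76). In melanocyte-like cells, where 1.27% of 1653 genes rose, the 1 breakdown and uptake gene at 100 CPM rose too (1.48).

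The other 17 kept collagens stayed under 20 CPM in every class with 200 cells in each library and had from 20 to 461 UMIs over both matrices. They are Col2a1, Col4a3, Col4a4, Col6a4, Col6a5, Col6a6, Col9a1, Col9a2, Col9a3, Col11a2, Col19a1, Col20a1, Col22a1, Col24a1, Col25a1, Col26a1 and Col28a1. No ratio is given for them. In cluster 0, led by proliferation genes (3.01% of 1527 genes rose and 1.7% fell), hair matrix-like cells (1.34% and 1.56% of 1345), inner root sheath-like cells (2.56% and 1.54% of 1365) and melanocyte-like cells (1.27% and 2% of 1653), 0 collagen genes reached 100 CPM, so none could rise or fall.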

How the data were processed

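Single cells of mouse dorsal skin were profiled with 10x Genomics 3' v3 libraries. The deposited values are UMI counts per gene and barcode in 1 matrix per group, written, per the file headers, by Cell Ranger 3.0.2. The submitters' processing notes list Seurat 3.0.0 and 3.1.0 and the builds GRCm38 and mm10. The control matrix held 16973 barcodes and 140880809 UMIs and the mutant matrix 13411 barcodes and 97817173 UMIs.

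Cells under 500 genes or over 15% mitochondrial UMIs were left out. Scrublet removed 2.59% of control and 3.95% of mutant cells, where 11.3% and 9.16% doublets would be expected at this loading, so doublets may remain. Cells were clustered with scanpy 1.11.5, scikit-learn 1.9.0, leidenalg 0.10.2 and igraph 0.11.9 on 2000 variable genes without collagens, 30 principal components, 15 neighbours and resolution 1. Clusters were named from 26 marker sets with at least 3 markers detected, a score of at least 2.5 and a lead of 0.3, limits set after the data were seen. Unnamed clusters held, in control and mutant cells, 8.66% and 15.6% (cluster 0), 4.87% and 3.84% (cluster 6), 2.59% and 1.81% (16), 1.26% and 2.88% (19), 1.81% and 0.0909% (23), 0.653% and 1.05% (25), 0.348% and 0.500% (29), and 0.254% and 0.118% (32). Classes of 200 or more cells per library were compared, and smaller ones give levels only.

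The UMIs of each class were added up by library and scaled to CPM. Intervals are exact at 95% (Poisson for levels, conditional for ratios, Clopper-Pearson for shares of cells) by scipy 1.17.1. Collagen and all-gene medians of a class add 0.5 UMIs to each count. Scaling factors came from edgeR 4.0.16. Ends of 31 genes were compared with other transcripts by BLAST+ 2.17.0. The calculation was tested on simulated data. Described are collagens with at least 20 CPM in a compared class, and of each other list up to 5 genes per stromal class past the size rule or, if none, the 2 highest. Epithelial list genes were named after their values were seen. Gene positions are from the GENCODE annotation of GRCm38. Alternatives covered filters, doublets, clustering, scaling, weighting, thinning and level minimums. Members and lists were chosen with earlier results of these data known.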

Additional observations from a re-analysis of the deposited data

Results flagged for a closer look

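Compared between fibroblast-like and dermal papilla-like cells, and between interfollicular basal keratinocyte-like and outer root sheath-like cells, 6 collagen genes at 20 CPM or more in both classes had ratios of opposite sign with intervals that excluded 0. Other pairs of classes were not compared in this way. None of these differences was tested, since each class has 1 library per group.

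Between fibroblast-like and dermal papilla-like cells, the log2 ratios of mutant over control differed by -1.06 for Col11a1 (-0.73 and 0.33), by -1.51 for Col27a1 (-0.63 and 0.89), by 1.40 for Col5a3 (0.82 and -0.59) and by -1.93 for Col12a1 (-0.62 and 1.32). Col27a1 and Col12a1 were under 100 CPM in both classes. The Col11a1 ratio in fibroblast-like cells ran from -0.81 to -0.32 over the alternative settings. The Col12a1 ratio in dermal papilla-like cells was -0.23 as a mean of per-cell CPM, the same sign as in fibroblast-like cells. In papilla-like cells under 5000 UMIs Col11a1 was at -0.31 (-0.73 to 0.10) and Col12a1 at -1.04, also the sign of fibroblast-like cells.

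Between interfollicular basal keratinocyte-like and outer root sheath-like cells, the ratios differed by -1.17 for Col16a1 (-0.97 and 0.21) and by -0.81 for Col4a1 (-0.51 and 0.30). In the former class Col16a1 had 38.6 and 19.7 CPM and Col4a1 25.3 and 17.7 CPM. With TMM factors every ratio of that class is higher by 0.31.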

How the results depend on the processing

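The number of collagen genes past the size rule moved as follows. Shares of all genes past the rule are given for the main setting only. The counts under other settings thus have no background beside them. In fibroblast-like cells (1) it was 3 with TMM or median-ratio factors, 0 with a minimum of 300 CPM and 2 with no minimum. In dermal papilla-like cells (2) it was 1 with the T or NK cell-like level subtracted or each library clustered on its own, 0 with thinned cells or per-cell means, and 6 with no minimum. In interfollicular basal keratinocyte-like cells (1) it was 2 at 20 CPM, 6 with no minimum, and 0 with thinned cells, per-cell means or subclusters weighted equally. In sebaceous gland-like cells (1) it was 2 at 20 CPM or no minimum, and with no minimum it was 1 in outer root sheath-like (0), 4 in inner root sheath-like (0) and 2 in hair matrix-like cells (0).

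The summed log2 ratio kept its sign under each alternative run in the classes that follow, other than hair matrix-like cells. In fibroblast-like cells (0.72) it was 0.95 with TMM, 0.99 with median-ratio factors, 0.69 thinned, 0.61 as per-cell mean, 0.29 with subclusters weighted equally, 0.76 with collagens among the variable genes, 0.67 with libraries clustered apart and 0.73 under the stricter filter. In dermal papilla-like cells (0.31) the same settings gave 0.24 with TMM, 0.26 with median-ratio factors, 0.16 thinned and 0.15 as per-cell mean, and 0.21 with doublets kept. In interfollicular basal keratinocyte-like cells (0.83) it was 0.92 with the T or NK cell-like level subtracted, 1.14 with TMM, 1.13 with median-ratio factors, 0.59 thinned, 0.59 weighted equally, 0.53 as per-cell mean, 1.08 with libraries apart, 0.69 at resolution 0.5 and 0.77 at resolution 2. In outer root sheath-like cells (0.32) these were 0.35 subtracted, 0.35 with TMM, 0.36 with median-ratio factors, 0.28 thinned, 0.27 weighted equally, 0.26 as per-cell mean and 0.40 with libraries apart. In sebaceous gland-like cells (0.93) they were 1.19 subtracted, 1.05 with median-ratio factors, 0.80 thinned and 0.63 as per-cell mean. In inner root sheath-like cells (0.59) the ratio ran from 0.26 to 1.32. The sum in hair matrix-like cells (-0.35) reversed to 0.59 weighted equally, 0.019 with doublets kept and 0.29 at resolution 2. The cause was not tested.

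Equal weighting was added after the data were seen. No sebaceous value was obtained at resolution 0.5, with doublets kept, with libraries apart, with collagens among the variable genes or with equal weighting, and none for Col12a1 in dermal papilla-like cells after subtraction. With doublets kept or collagens among the variable genes, Cidea, Elovl6 and Scd1 were among the leading genes of a cluster named upper follicle keratinocyte-like. No paired analysis was possible because the samples of each group were pooled in 1 matrix. With 1 library per group, intervals cover counting error only, and tamoxifen timing and genotype cannot be told apart.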

Other observations

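Small stromal clusters, with under 200 cells in a library and so given as levels only, carried other collagens. Cluster 25, where sheath or smooth muscle and fibroblast markers tied, had 90 and 115 cells. It held Col11a1 at 776 and 631 CPM, Col12a1 at 470 and 531 CPM and Col8a2 at 135 and 130 CPM. Cluster 29, led by the pericyte gene Rgs5, had 48 and 55 cells, with Col4a1 at 985 and 1678 CPM and Col18a1 at 476 and 325 CPM.

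Schwann-like cells (95 and 118) held Col28a1, a collagen known from peripheral nerve, at 167 and 101 CPM, although it stayed under 20 CPM in every compared class. They also held Col13a1 at 140 and 118 CPM and Col16a1 at 212 and 181 CPM. Lymphatic endothelial-like cells (197 and 122) held Col4a1 at 297 and 555 CPM, Col4a2 at 130 and 258 CPM and Col18a1 at 335 and 254 CPM.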
